A study of Mus musculus with 31 samples.

Results

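Expression of 8 target genes of the nuclear receptor PPAR-alpha, grouped here under fatty acid oxidation, was followed across the livers of 31 BXD strains. Pdk4 and Vnn1 among them are not enzymes of fatty acid oxidation itself. The genes were Cyp4a10, Cyp4a14, Pdk4, Cpt1a, Ehhadh, Acot1, Acadm and Vnn1, chosen by symbol in the platform annotation. Each had 1 probe, so 8 genes of the 15095 named by a single-gene probe, and 8 probes of the 21765 with a value on every array, are described. BXD strains are recombinant inbred mice made from C57BL/6J and DBA/2J, and those used here carry numbers between 1 and 42. For each strain, equal amounts of whole liver RNA from 3 male mice aged 8 weeks were pooled and set, on a 2-colour glass array, against 1 pool of 9 male C57BL/6J mice of the same age. The labels name no treatment, diet or feeding state, and dyes were not swapped. Because there is 1 array per strain, all spread given is between strains, and an extreme value has no replicate check.

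PPAR-alpha binds DNA as a partner of the retinoid X receptor and is switched on by fatty acids and by drugs such as the fibrates. In liver it raises the genes that take up, activate and burn fatty acids, above all in fasting. Its targets lie in several compartments: omega-hydroxylation in the endoplasmic reticulum, beta-oxidation in mitochondria and in peroxisomes, and release of free acid from acyl-CoA in the cytosol. Cyp4a genes are among its most responsive targets in rodent liver.

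Each value is taken as the log2 of strain RNA divided by reference RNA, so that 0 means the level of the C57BL/6J pool and 1 a doubling. That base and that direction are likely, but no source used here states them. All arrays share a single distribution of values, which ends at 3.65 and -3.84, and no member reached either end. The arrays of strains 23, 28, 40 and 42 stood apart, with a median r with the other arrays between 0.06 and 0.37, against 0.57 or more for the other 27. Probes whose identifier is a multiple of 8 had panel means with a median of -0.58, where the rest had 0.04. Of the 8 members only the Acot1 probe has such an identifier. The word place below means this order of identifiers only, and positions on the array were not used. Signal over background is unknown, and precision is limited by how many arrays there are.

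Against the C57BL/6J pool, Acadm and Cpt1a were higher, Ehhadh and Acot1 were lower, and the other 4 genes had no panel mean that passed. These 2 higher and 2 lower calls of 8 stand beside 75.0% of all probes called, 37.4% higher and 37.6% lower, by the same test (limma's moderated test of the mean against 0, Benjamini-Hochberg adjusted p under 0.05), so the members' share is no larger than the background. Acadm, the medium-chain acyl-CoA dehydrogenase of mitochondria, had a mean of 0.45 ± 0.06 (SE, n = 31), 1.36-fold, with an adjusted p = 1.19e-08 in limma. It was above 0 in 27 of 31 strains. Cpt1a, which makes the acylcarnitines that enter mitochondria, had a mean of 0.27 ± 0.03 and was above 0 in 28 strains (limma adjusted p = 3.32e-09). Ehhadh, the peroxisomal bifunctional enzyme, had -0.24 ± 0.04 and was below 0 in 26 strains (limma adjusted p = 2.61e-06). Acot1, a cytosolic acyl-CoA thioesterase, had -0.59 ± 0.14 (limma adjusted p = 0.000114), but after the array's median for its place was subtracted its mean was -0.01 ± 0.12 and no longer passed (adjusted p = 0.926). With a test that asks for a mean beyond 0.2, only Acadm and Acot1 of the 8 passed.

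The remaining 4 genes lay on both sides of the reference. Cyp4a10 and Cyp4a14, fatty acid omega-hydroxylases, had means of 0.31 ± 0.19 and 0.24 ± 0.18 (limma adjusted p = 0.114 and 0.187). Without strain 31, the mean of Cyp4a10 was 0.38 and passed (limma adjusted p = 0.0483). Pdk4, the kinase that shuts off pyruvate dehydrogenase and so spares glucose, had -0.04 ± 0.06, and Vnn1, the pantetheinase that releases cysteamine and pantothenate, had 0.01 ± 0.04. Dye bias in a probe was not tested, since no array had the dyes swapped.

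**Figure D1:**
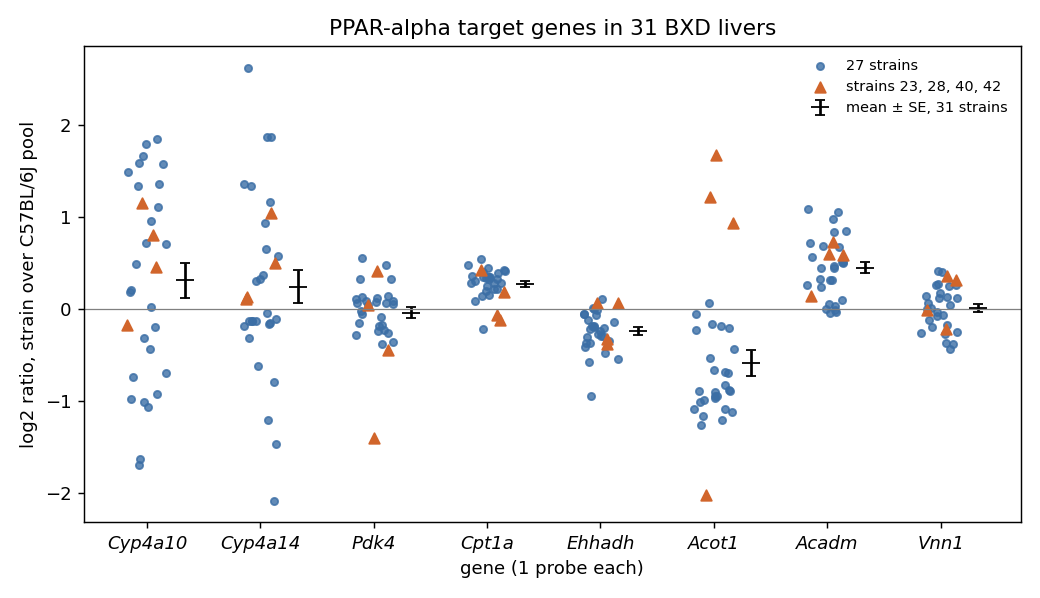
Log2 ratio of strain over C57BL/6J pool (vertical axis) for the 8 genes (horizontal axis), 1 point per strain, with triangles for strains 23, 28, 40 and 42 and the mean ± SE over 31 strains beside each column. Cyp4a10 and Cyp4a14 spread over more than 3 log2 units, Cpt1a, Ehhadh and Vnn1 over about 1 or less, and the highest 3 and the lowest value of Acot1 are triangles.

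Both Cyp4a genes varied among strains far more than the other members, apart from Acot1. The SD of Cyp4a10 was 1.06, rank 27 of 21765 probes, and that of Cyp4a14 was 0.99, rank 44, where the median probe had 0.24. Cyp4a10 ranged from -1.69 in strain 31 through a median of 0.46 to 1.84 in strain 20, an 11.6-fold span. Cyp4a10 was above 1 in 10 strains, below -0.5 in 8 and between these values in 13, and strains 31 and 32, at -1.69 and -1.63, lay apart from the next lowest, -1.06 in strain 16. The 10 above 1 were strains 5, 15, 20, 22, 27, 33, 36, 38, 39 and 42, and the 4 lowest were strains 31, 32, 16 and 18.

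Cyp4a14 ranged from -2.08 in strain 18 through a median of 0.11 to 2.62 in strain 39, a 26.0-fold span. It was above 1 in 7 strains, of which 6 also had Cyp4a10 above 1, and below -1 in strains 16, 18 and 32, all 3 among the 4 lowest for Cyp4a10. RefSeq places both genes side by side on chromosome 4, with no gene listed between them. Across strains they had r = 0.77 and rho = 0.78 (both permutation p = 1e-05, the smallest that 100000 resamples can give), with the limma adjusted p = 0.00025 and 0.00051 in the fits of one on the other. Cyp4a14 changed by 0.72 ± 0.11 (SE) per unit of Cyp4a10 on the log2 scale. Without strains 31 and 32, the farthest from the median of Cyp4a10, r was again 0.77.

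The pair did not move together in every strain. Strain 36 had the second highest Cyp4a10, 1.79, with Cyp4a14 at -0.13, and strain 27 had 1.58 with 0.32. In the other direction, strain 31 had the lowest Cyp4a10, -1.69, with Cyp4a14 at -0.13, and strain 39 had 1.49 with 2.62. The difference between the probes ran from -1.57 in strain 31 to 1.92 in strain 36 (SD 0.70). The files used here hold no probe sequences, so how far each probe reads the other gene's transcript, or those of further Cyp4a copies, was not tested. Calls on this pair are uncertain in that sense.

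Acadm followed Cyp4a10. Its values ran from -0.04 in strain 14 through a median of 0.47 to 1.08 in strain 22, with 1.05 in strain 5 next. Among the strains with the lowest Cyp4a10, Acadm was mixed: it was -0.03 in strain 32, -0.04 in strain 14, 0.05 in strain 13 and 0.03 in strain 12, but 0.24 in strain 31, 0.32 in strain 16 and 0.47, the panel median, in strain 18. Among the 10 strains with Cyp4a10 above 1, Acadm was lowest in strain 36, at 0.50. The correlation was r = 0.76 and rho = 0.77 (both permutation p = 1e-05, the smallest possible here), with limma adjusted p = 0.0009 and 0.00033 in the 2 fits, and Acadm changed by 0.24 ± 0.04 (SE) per unit of Cyp4a10. It was 0.75 without the 2 strains farthest from the median of Cyp4a10 and 0.80 without the 4 arrays that stood apart. Acadm and Cyp4a10 lie on different chromosomes, 3 and 4.

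Vnn1 varied little, with an SD of 0.24 equal to that of the median probe, yet its order of strains resembled that of Acadm. It ranged from -0.44 in strain 12 and -0.38 in strain 14 to 0.40 in strain 22 and 0.41 in strain 15, with a median of 0.01. With Acadm it had r = 0.73 and rho = 0.73 (both permutation p = 1e-05, limma adjusted p = 0.0024 and 0.011), and r = 0.69 without strains 22 and 5. With Cyp4a10 it had r = 0.63 (permutation p = 0.0002) and rho = 0.59 (permutation p = 0.00074), with limma adjusted p = 0.016 and 0.028. Without strains 31 and 32 that r was 0.56. This call was close to the threshold: leaving out strain 12, 14, 15, 20, 22, 31 or 32 ended it, with adjusted p between 0.0502 and 0.0795.

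Strains 15 and 22 were among the 8 highest for Cyp4a10, Cyp4a14, Acadm and Vnn1 alike. Strains 12, 13, 14 and 32 were among the 10 lowest for all 4 genes, strain 12 with a Cyp4a14 of only -0.15, rank 23 from the highest. Strain 16 went the other way for Vnn1, with 0.27 beside a Cyp4a10 of -1.06 and a Cyp4a14 of -1.21. Strain 28, whose array stood apart, had high Acadm (0.73) and Vnn1 (0.31) beside a Cyp4a10 of -0.17.

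**Figure D2:**
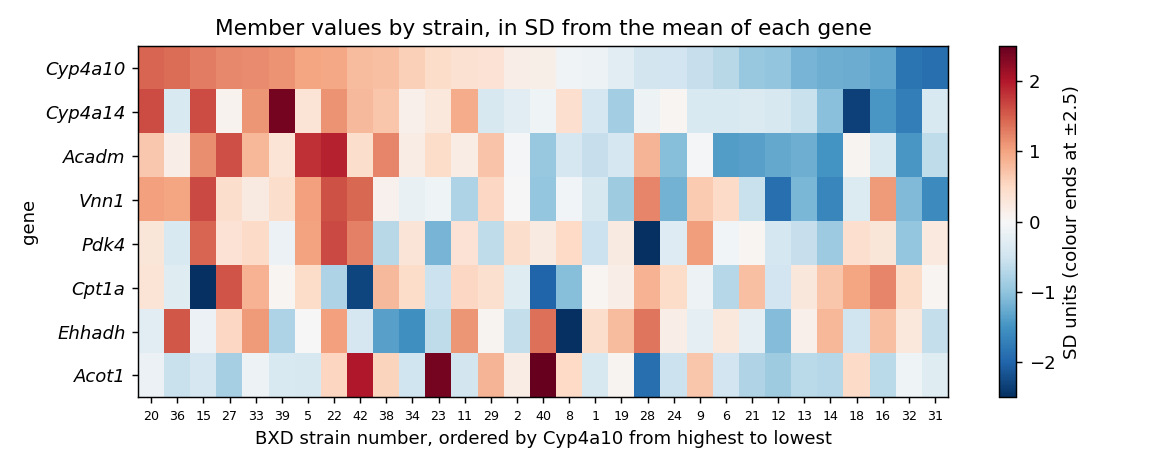
Values of the 8 genes (rows) in 31 strains (columns, strain numbers ordered by Cyp4a10 from highest to lowest), coloured in SD units from each gene's mean. Red fades to blue from left to right in the rows of Cyp4a14, Acadm and Vnn1 as in that of Cyp4a10, but not in those of Cpt1a, Ehhadh and Acot1, where single strains such as 15, 8 and 40 stand out.

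Of the 28 pairs of member genes, 5 were called, 4 with r above 0 and 1 below. A pair was called where the adjusted p over all other probes was under 0.05 in both limma fits, each gene in turn as the covariate. The 4 positive pairs were Cyp4a10 with Cyp4a14, Acadm and Vnn1, and Acadm with Vnn1. Fits with Cyp4a10 called 3 of the 7 other members, beside 3.6% of all probes. Those with Acadm also called 3 of 7, beside 2.53%, and those with Vnn1 called 2 of 7, beside 0.478%. Cyp4a14 as covariate called Cyp4a10 alone, beside 0.414%. Its r with Acadm was 0.54 (permutation p = 0.0017) and rho 0.64 (permutation p = 0.00013), a pair that passed in 1 of the 2 fits only (limma adjusted p = 0.087 and 0.041). Leaving out strain 18 brought it to adjusted p = 0.045 and a call.

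All 4 positive pairs were called again without strains 23, 28, 40 and 42, after place correction, and with the first principal component of the arrays as a second covariate. Without the 4 strains more of all probes were called too: 8.49% with Cyp4a10, 10.3% with Acadm, 3.4% with Vnn1 and 2.83% with Cyp4a14. With Cyp4a10, 808 probes were called after place correction and 917 with the principal component, beside 783 in the main run. On ranks the result depended on the test: limma on normal scores called no pair, while ordinary regression on the same scores called 3 of these 4 and Cyp4a14 with Acadm. Cyp4a10 with Vnn1 then missed the threshold (adjusted p = 0.0577). Probes with identifiers within 10 of a member's own had a median r that differed between members. Their median r was 0.15 for Cyp4a10 (18 probes, 2 called), 0.12 for Acadm (20, 4 called), 0.13 for Vnn1 (18, 2 called) and 0.16 for Cpt1a (20, 3 called), where all probes had -0.01 or, for Cpt1a, 0.00. It was 0.04 for Cyp4a14 (20, none called) and for Ehhadh (20, none called), -0.04 for Pdk4 (17, 2 called) and -0.25 for Acot1 (20, 5 called). Of all probes, 3.6% were called with Cyp4a10, 2.53% with Acadm, 0.478% with Vnn1 and 0.414% with Cyp4a14. The share was 12.9% with Cpt1a, 5.44% with Pdk4 and 34.8% with Acot1, and none was called with Ehhadh. The counts for Cpt1a and Acot1 are thus not read as more than the background. The part of such nearness in the pairs was not tested.

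**Figure D3:**
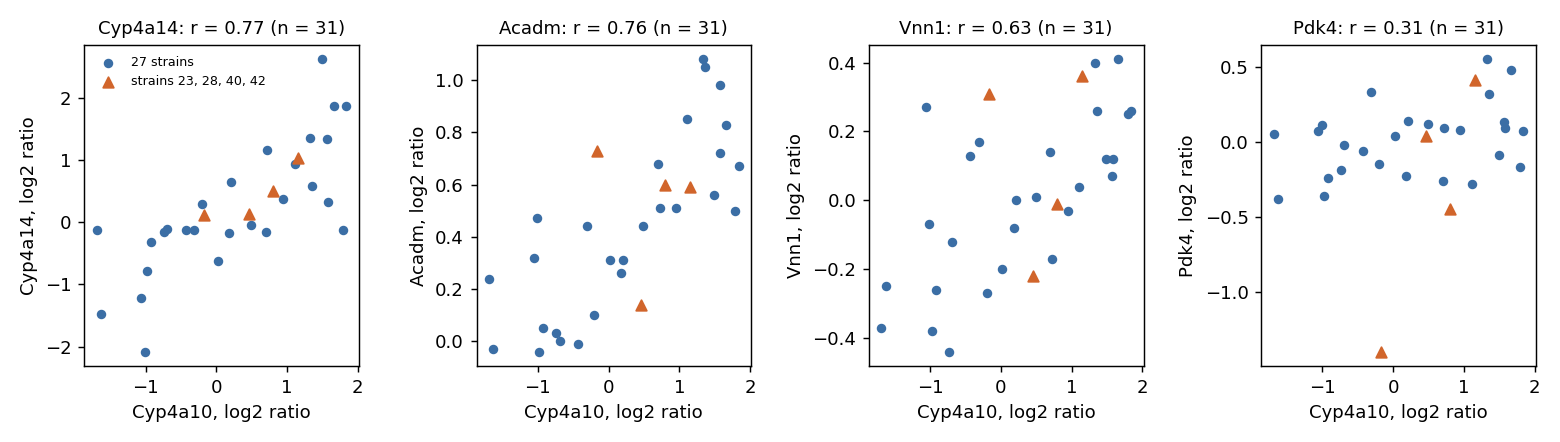
Cyp4a14, Acadm, Vnn1 and Pdk4 (vertical axes, log2 ratio) against Cyp4a10 (horizontal axis, log2 ratio), 1 point per strain and triangles for strains 23, 28, 40 and 42. Points rise along a line for Cyp4a14 (r = 0.77), Acadm (0.76) and Vnn1 (0.63). For Pdk4 (0.31) the slope is 0.1 ± 0.06 (SE), beside 0.14 ± 0.03 for Vnn1, and strain 28 lies far below at -1.40. Each panel has its own vertical scale.

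Pdk4 was not called with any other member over 31 strains. It ranged from -1.40 in strain 28 through a median of 0.04 to 0.55 in strain 22. The next lowest value was -0.45 in strain 23, so that strain 28 lay alone, and its array was one of the 4 that stood apart. With Acadm, Pdk4 had r = 0.24 and rho = 0.38 (permutation p = 0.19 and 0.039), and with Vnn1 0.24 and 0.44 (permutation p = 0.19 and 0.013). Without the 4 arrays these became r = 0.60 and 0.61, passing in 1 of the 2 limma fits each (adjusted p = 0.055 and 0.017 for Acadm, 0.06 and 0.034 for Vnn1). The fits that passed had Acadm or Vnn1 as covariate, and there they called 10.3% and 3.4% of all probes. Leaving out strain 28 alone gave 0.52 with Acadm and 0.60 with Vnn1. With Cyp4a10, Pdk4 had r = 0.31 (permutation p = 0.09) and rho = 0.35, and r = 0.38 without the 4 arrays. With Pdk4 as covariate, 5.44% of all probes were called over 31 strains, and 0.777% without the 4. In limma none of its 7 relations with members had an adjusted p under 0.05, 1 had an unadjusted p under 0.05, and ordinary regression on ranks called none.

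Cpt1a varied less than most probes and did not follow Cyp4a10. Its SD was 0.17, with values from -0.22 in strain 15 through a median of 0.32 to 0.54 in strain 27, and the 3 values below 0 were those of strains 15, 40 and 42. Its r was -0.24 with Cyp4a10, -0.34 with Cyp4a14 and 0.01 with Acadm, none of them called. In strain 15, where Cyp4a10, Cyp4a14 and Vnn1 were among their highest, Cpt1a had its lowest value. The 1 called pair with r below 0 was Cpt1a with Acot1, at -0.52 (permutation p = 0.0045) and rho = -0.43 (limma adjusted p = 0.022 and 0.017). Without the 4 arrays its r was -0.13, and the call ended there, after place correction (-0.44) and when strain 40 or 42 alone was left out (-0.41 and -0.43). Fits with Cpt1a called 12.9% of all probes over 31 strains and 0.0368% without the 4.

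Ehhadh stood apart from every other member. It ranged from -0.95 in strain 8 through a median of -0.22 to 0.11 in strain 36. The lowest value was again alone, the next being -0.58 in strain 34. Its r with the other 7 lay between -0.17 and 0.15, and between -0.27 and 0.22 without the 4 arrays. In limma no probe at all had an adjusted p under 0.05 with Ehhadh, 4.7% had an unadjusted p under 0.05, and no member did. Ordinary regression on ranks called no probe either. Peroxisomal oxidation was thus represented among the 8 by 1 probe whose values matched none of the others. Its SD was 0.22, where the median probe had 0.24. How much of that spread is measurement error was not tested, with 1 array per strain.

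The Acot1 probe moved in part with the probes whose identifiers, like its own, are multiples of 8. It ranged from -2.02 in strain 28 through a median of -0.88 to 1.67 in strain 40. The 3 highest values, 1.67, 1.22 and 0.93, and the lowest were all in the 4 strains that stood apart, and the other 27 strains lay between -1.26 and 0.06. Its r with the per-array median of the probes at multiples of 8 was 0.70, and all 25 probes with the highest r to it were at such places, where 11.6% of all probes are. That median was between -0.72 and -0.50 in the 27 strains and between -0.24 and 0.01 in the 4. Strain 28 went against this, with the lowest Acot1 beside a place median of -0.24. After place correction Acot1 still ran from -1.79 to 1.66, with an SD of 0.64 where it had been 0.76. Fits with Acot1 called 34.8% of all probes, so no correlation of Acot1 is read here as one between genes.

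**Figure D4:**
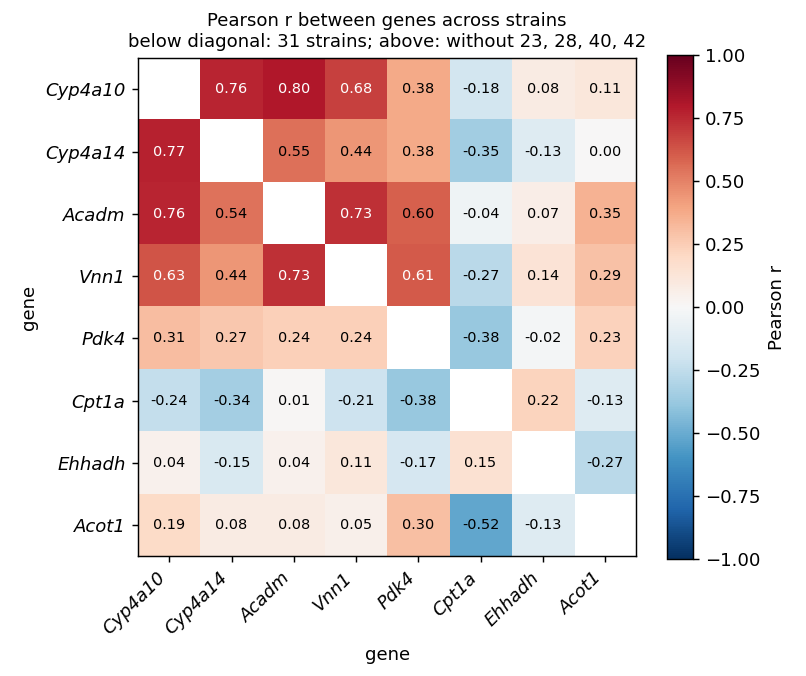
Pearson r between the 8 genes (both axes) across strains, over 31 strains below the diagonal and over 27 strains, without 23, 28, 40 and 42, above it. The pairs among Cyp4a10, Cyp4a14, Acadm and Vnn1 are all positive (0.44 to 0.77 over 31 strains), and the values of Pdk4 with Acadm and Vnn1 change from 0.24 below the diagonal to 0.60 and 0.61 above it.

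RefSeq promoter windows were held for 5 of the 8 genes, Pdk4, Cpt1a, Ehhadh, Acot1 and Acadm, and not for Cyp4a10, Cyp4a14 and Vnn1. They are shown for Acadm, which moved with Cyp4a10, and for Cpt1a, which did not, because these are the 2 that hold the half-site of nuclear receptors such as PPAR-alpha, AGGTCA, on either strand. Each covers 250 bases before to 50 after the start site, 5′ to 3′ in build GRCm38.p6, at chr3:153944594-153944893 on the minus strand for Acadm and chr19:3323051-3323350 on the plus strand for Cpt1a. Capitals mark the match, which reads TGACCT because it is on the opposite strand.
Acadm: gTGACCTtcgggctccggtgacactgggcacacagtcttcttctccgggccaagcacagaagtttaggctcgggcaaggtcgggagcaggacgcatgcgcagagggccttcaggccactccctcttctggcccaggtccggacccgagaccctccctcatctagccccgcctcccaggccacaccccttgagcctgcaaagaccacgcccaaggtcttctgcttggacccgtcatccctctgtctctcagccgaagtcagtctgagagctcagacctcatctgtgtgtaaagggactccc
Cpt1a: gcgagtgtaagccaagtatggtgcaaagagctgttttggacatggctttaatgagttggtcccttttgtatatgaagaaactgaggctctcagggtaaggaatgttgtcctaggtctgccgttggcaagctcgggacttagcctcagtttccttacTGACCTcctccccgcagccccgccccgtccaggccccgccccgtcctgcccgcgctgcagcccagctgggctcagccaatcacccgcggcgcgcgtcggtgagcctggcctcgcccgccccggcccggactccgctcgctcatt
The match began at base -249 from the start site in Acadm and at -94 in Cpt1a. Of 32544 windows of the same length, 16.2% held AGGTCA on either strand. A direct repeat of AGGTCA spaced by 1 base, with at most 2 mismatches, was in none of the 5 members' windows and in 3.87% of all windows. These are matches of letters in a short window and say nothing of binding.

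Other PPAR-alpha targets and genes of fatty acid oxidation mostly did not follow Cyp4a10. Of 50 probes for other targets (49 of 64 listed genes), 3 were called with r above 0 and 1 below, where 2.24% and 1.36% of all probes were, and their median r was 0.06 against -0.01 over all probes. The 3 were Vnn3, the neighbouring family member of Vnn1 (r = 0.67, limma adjusted p = 0.00505), the carnitine acetyltransferase Crat (0.65, adjusted p = 0.0138) and the uncoupling protein Ucp3 (0.58, adjusted p = 0.0304). Txnip, an arrestin-like protein that restrains glucose uptake, was called below 0 (-0.54, adjusted p = 0.0379). Vnn3 ranged from -0.91 to 0.90 between strains and Crat from -0.14 to 0.69. Without the 4 arrays, where 8.49% of all probes were called with Cyp4a10, 4.58% above 0 and 3.91% below, 5 were called above 0 and 2 below, among them Tmem97 (0.58) and, below, the peroxisomal transporter Abcd3 (-0.58).

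Among 19 probes of mitochondrial oxidation none was called with Cyp4a10 by limma over 31 strains, beside 3.6% of all probes. Their median r was 0.04. Without the 4 arrays 2 were called above 0, where 4.58% of all probes were. These were the enoyl-CoA isomerase Eci1 (0.59) and the electron transfer flavoprotein subunit Etfb (0.61), whose r had been 0.42 and 0.43. Acadm was thus the gene of the mitochondrial spiral with the clearest relation to Cyp4a10, having 0.76, while Acadl had -0.01 and Acadvl 0.03. In peroxisomes, 2 of 18 probes were called above 0 and 2 below, where 2.24% and 1.36% of all probes were. Decr2, the peroxisomal dienoyl-CoA reductase, had 0.61 (adjusted p = 0.0158) and Hsd17b4, the second bifunctional enzyme, -0.66 (adjusted p = 0.019). The other 2 were both probes of catalase, Cat, at 0.56 and -0.53, and these 2 probes of 1 gene therefore disagreed. In panel means, the lists went both ways. Of the 50 probes of other targets, 17 were higher than the reference, 15 lower and 18 did not pass, where 37.4% of all probes were higher and 37.6% lower. The fatty acid transport proteins Slc27a2 (0.84 ± 0.10) and Slc27a5 (0.72 ± 0.08) were at one end. At the other were the aldehyde dehydrogenase Aldh3a1 (-0.71 ± 0.08) and the carnitine octanoyltransferase Crot (-0.64 ± 0.06), both at multiples of 8. Cidec, whose probe is not at a multiple of 8, was level with Crot (-0.64 ± 0.05). These signs rest on the likely direction of the ratios. Among the 19 mitochondrial probes 11 passed above the reference and 5 below it, beside the same 37.4% and 37.6%, with Hadhb, the beta subunit of the trifunctional protein, at -0.71 ± 0.05 (SE, n = 31). Etfb was at 0.65 ± 0.07, and Acadsb, a branched-chain acyl-CoA dehydrogenase whose probe is at a multiple of 8, at -2.02 ± 0.12. In ketone body synthesis and use none of 3 probes was called by limma, and in the pyruvate dehydrogenase group, to which Pdk4 belongs, none of 7.

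PPAR-alpha itself had 1 probe, which ranged from -0.56 to 0.75 with a panel mean of 0.07 ± 0.06. Its r was 0.43 with Cyp4a10 (limma adjusted p = 0.119), 0.48 with Vnn1, 0.40 with Acadm and 0.26 with Cyp4a14, and none of these was tested as a pair of members. Of 21 probes of receptors and cofactors, Ep300, a histone acetyltransferase, was the only one called with Cyp4a10 (0.57, adjusted p = 0.0303), beside the 3.6% of all probes. The partner receptor Rxra had -0.37 (adjusted p = 0.21).

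Lipogenic genes went both ways. Fasn, the fatty acid synthase, had r = 0.85 with Cyp4a10 (limma adjusted p = 3.84e-06), 0.73 with Cyp4a14 and 0.71 with Acadm, ranging from -0.67 through -0.01 to 1.33. Dgat2, which makes triglyceride and whose probe is at a multiple of 8, had 0.70 (0.63 after place correction). Scd1, the stearoyl-CoA desaturase, had -0.63 with Cyp4a10 and -0.70 with Cyp4a14, and Acly, the ATP citrate lyase, -0.59 with Cyp4a10. The Scd1 values ran from -3.84, the lower end of the distribution shared by all arrays, through a median of -1.88 to -0.18. In all, 2 of 22 lipogenic probes were called above 0 and 2 below, with a median r of 0.01, where 2.24% and 1.36% of all probes were called. Without the 4 arrays 2 were called above 0 and 3 below, where 4.58% and 3.91% of all probes were, the added one being a probe of Acaca (-0.73). That probe was 1 of 3 for Acaca, and the others had -0.04 and -0.10 there.

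In the fasting list 1 of 14 probes was called above 0 and 1 below: Pck1, the gluconeogenic carboxykinase, at 0.52, with an adjusted p so near the threshold that it is written 0.04997, and the kinase Sgk1 at -0.57. Of all probes 2.24% were called above 0 and 1.36% below. In the clock list, 1 of 17 was called, the output factor Dbp at 0.65 (limma adjusted p = 0.00782), and the list's median r was 0.07. When in the day livers were taken is not stated in the labels, and the part of time of day in the Cyp4a values was not tested.

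**Figure D5:**
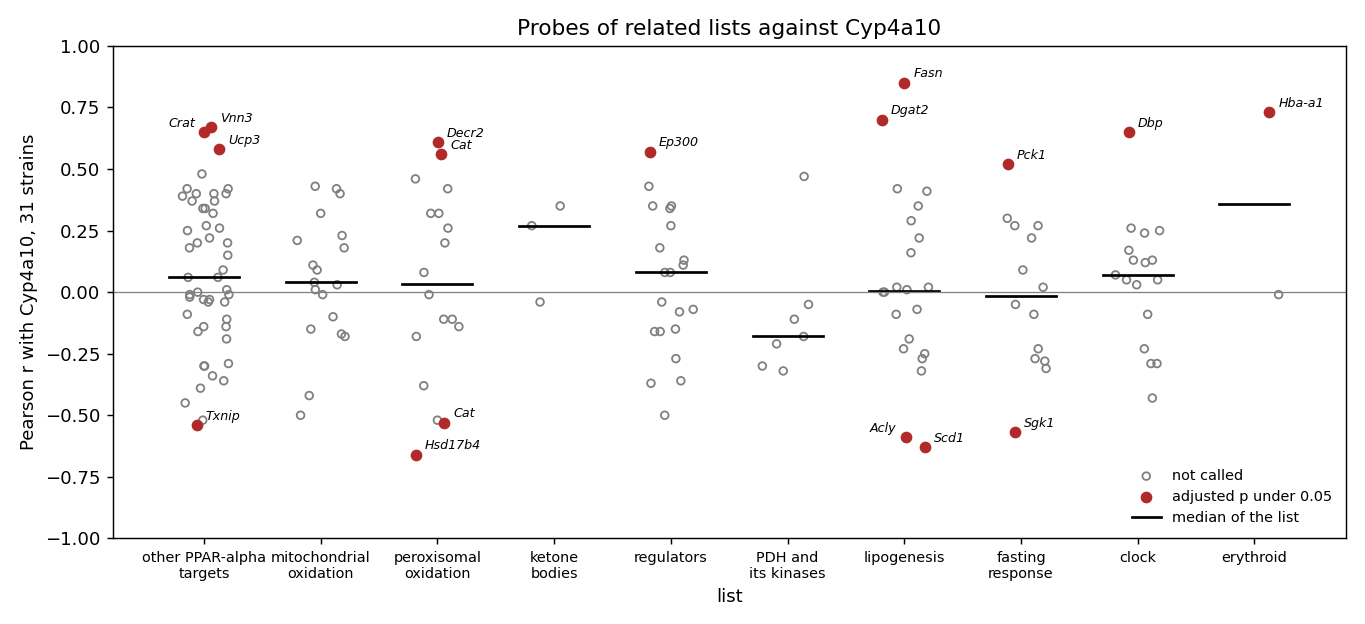
Pearson r with Cyp4a10 over 31 strains (vertical axis) for each probe of 10 lists (horizontal axis), filled where the limma adjusted p over all probes was under 0.05, with a bar at each list's median. Most probes lie between -0.5 and 0.5, and Fasn (0.85), Hba-a1 (0.73), Dgat2 (0.70), Vnn3 (0.67) and Hsd17b4 (-0.66) are farthest from 0.

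The genes with the highest r to Cyp4a10 outside the members were Plcb4, Fasn, Pkib, Rpl38, Atox1, Hpgd, Tmem70 and Vsnl1, from 0.85 down to 0.73 over 31 strains. Plcb4, a phospholipase C, had 0.85, and Pkib, an inhibitor of protein kinase A, had 0.81. Rpl38, Atox1 and Tmem70 are at multiples of 8 and had 0.79, 0.73 and 0.77 after place correction. The identifier of the Hpgd probe lies within 10 of that of the Cyp4a10 probe. Without the 4 arrays the 8 had between 0.73 and 0.88. The lowest r were those of Sirpa (-0.76), Mrpl20 (-0.74), Lman1 (-0.73) and Amer2 (-0.72). For Acadm the highest were Adh1, the alcohol dehydrogenase (0.84), Gcnt2 (0.83) and Gpld1 (0.81), and for Cyp4a14 Crct1 (0.80), Hba-a1 (0.77) and Aldoa (0.74). For Vnn1 they were Chordc1, Slc25a42 and Ugdh, at 0.74, 0.72 and 0.72, the last at a multiple of 8 and at 0.66 after place correction.

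Among markers of other cells, the haemoglobin probe Hba-a1 moved with the Cyp4a genes, and most others did not. It had r = 0.73 with Cyp4a10 (limma adjusted p = 0.0015), 0.77 with Cyp4a14 and 0.70 with Acadm, ranging from -0.94 through -0.05 to 1.57. The other measured erythroid marker, Alas2, had -0.01. The mean of these 2 of 4 listed erythroid markers ranged from -0.30 to 1.13 between strains. Of 8 Kupffer cell and macrophage probes, Cd14 alone was called (0.60, limma adjusted p = 0.0238), beside 3.6% of all probes. The list mean lay between -0.43 and 0.36. None of 5 adipocyte, 8 exocrine pancreas, 4 skeletal muscle and 8 hepatocyte probes was called by limma with Cyp4a10. The part of blood or other cells in the Cyp4a differences was not tested, and in whole liver fewer cells of a type and less RNA per cell cannot be told apart.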

How the data were processed

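The authors deposited normalized log ratios, read here as log2 of the strain RNA over the reference RNA, made with limma under R 2.0.0 per the submitters' processing notes. For background correction and normalization, the method is not given in the sources used here. Per the labels' protocols, 20 ug of RNA was labelled for each channel. Of 23040 features, 1275 were empty on every array. Names come from the platform annotation, updated by gene ID through a RefSeq table of GRCm38.p6 (15964 of 16642 probes with 1 gene matched), which served for names and gene order only.

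With limma 3.58.1 in R 4.3.3, panel means were tested against 0, and each member's values were used as a covariate for all other probes (lmFit, eBayes, two-sided, Benjamini-Hochberg over all probes). Slopes have ordinary standard errors. Pearson and Spearman correlations of the 28 pairs had two-sided permutation p-values from 100000 resamples, not adjusted over pairs, since limma's adjusted p over all probes stands beside the pairs called. Scripts were tested on simulated data. Place correction subtracted each array's median over probes at multiples of 8, and over the rest, from those probes. Named genes are all members, up to 4 list genes in each direction by r with Cyp4a10 and up to 4 by panel mean, the 8 highest and 4 lowest r to Cyp4a10 and the 3 highest to each other member, among probes with 1 usable symbol. Tmem97, Abcd3, Acaca, Acadl, Acadvl, Rxra, Alas2 and Cidec were named after their values were seen. Members, lists and alternatives were chosen with earlier results of these data known.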

Additional observations from a re-analysis of the deposited data

How the results depend on the processing

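Each panel mean that passed kept its sign in every alternative run, but Acot1 missed the threshold after place correction (-0.01, and -0.10 without strains 23, 28, 40 and 42 as well), and 2 of the 8 members passed when a mean beyond 0.2 was asked for, in place of 4. The panel mean of Pdk4 became 0.01 without these 4 strains, and that of Vnn1 -0.02 after place correction and -0.04 with both changes, none of them past the threshold. The 783 probes called with Cyp4a10 became 1848 without the 4 strains and 1913 with place correction as well. With limma on normal scores of ranks they became 3. Member pairs called were 0 in that setting, and why its calls were so few was not tested. Leaving out 1 strain at a time gave 4 to 5 members passing, 451 (strain 15) to 1128 probes called with Cyp4a10, 485 without strain 14, and 4 to 6 pairs called. Leaving out a strain gave panel means of Pdk4 between -0.06 and 0.01. Pdk4 with Acot1 was called only with the first principal component as a covariate (r = 0.53). Of the other PPAR-alpha target probes 4 were called with Cyp4a10, beside 3.6% of all probes, and 7 without the 4 strains, beside 8.49%. Scaling arrays to one median absolute deviation changed no member's call. Place correction together with leaving out the 4 strains, and ordinary regression on ranks, were added after the data were seen. No paired analysis was possible because there is 1 group of arrays. No intensities were used, so what signal over background limits is unknown.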

Other observations

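Among the members not called with Cyp4a10, Pdk4 was nearest to Kcnk16 (r = 0.87, and 0.70 without strains 23, 28, 40 and 42), Atp5l (0.80 and 0.55) and Colec12 (0.79 and 0.53), of which the first pair are at multiples of 8 and had a lowest value of -2.45. Cpt1a was nearest to the trypsin gene Try4 (0.77 and 0.82), Dbndd1 (0.75 and 0.61) and Mgat1 (0.75 and 0.57). Ehhadh was nearest to Bsdc1 (0.71), the pancreatic amylase Amy2 (0.69) and Dld (0.64), with limma adjusted p between 0.112 and 0.363, so none was called. Acot1 was nearest to Banf1 (0.98), Pldi (0.96) and Fndc4 (0.96), all at multiples of 8, with 0.96, 0.87 and 0.90 without the 4 strains.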
